A study of Mus musculus with 4 samples.

Results

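The members described here are the long intergenic noncoding RNA (lincRNA) genes of mouse podocytes that reached a count floor. They were chosen by their level, as every gene of biotype lincRNA in the deposited table with at least 100 reads summed over the 4 libraries, which gave 207 of 5559 lincRNA genes and of 54532 genes in all. The sum runs over both groups alike, so the rule fixed the level of a member and not the difference between the groups. Of the 5559 lincRNA genes, 1480 had at least 1 read.

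The cells were MPC5, a conditionally immortalized podocyte line that proliferates with interferon-γ at a permissive temperature and differentiates after their withdrawal. The IL-12 group (2 libraries) received IL-12 at 400 ng/ml and was taken after 6 h, and the control group (2 libraries) received saline. RNA-sequencing counts and FPKM values (fragments scaled to gene length and library size) were deposited for each library. Whether replicate libraries are separate cultures is not stated, so p-values measure the spread between these libraries, which may be technical.

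By definition a lincRNA gene lies between coding genes and gives a transcript, often capped, spliced and polyadenylated, with no long open reading frame. The members were taken by the deposited biotype alone, and 50 of them overlap a coding gene. Some of these RNAs act in the nucleus, as Xist does in silencing an X chromosome and Neat1 in building paraspeckles, and others serve mainly as precursors of small nucleolar RNAs (snoRNAs) or microRNAs that are cut from them. For most mouse lincRNAs, above all those known by a Gm or Rik symbol, no function is established.

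The libraries held 18355379 to 20098012 counts. Of the defining podocyte markers, Nphs1 and Lmx1b had 0 to 3 counts a library, Ptpro and Tcf21 were at 0 and Wt1 had 4 to 16, while Synpo, Actn4, Cd2ap, Nes and Podxl were abundant. The chain Il12rb1 of the IL-12 receptor had 8 to 26 counts a library and Il12rb2 had 0 to 4. Summed markers of T and NK lymphocytes stood at 0.106 to 0.663 CPM (counts scaled to library size by the TMM method), with Cd3e, Cd3g and Cd8a at 0. Of 5 macrophage markers Adgre1 was at 0, and their sum, mostly Csf1r, was 26.4 and 29.1 CPM in the control and 15.8 and 19.7 CPM in the IL-12 libraries. Endothelial markers summed to at most 0.555 CPM with Emcn at 0. Mesangial markers summed to 69.5 to 81.7 CPM with Ren1 at 0. Tubule markers, mostly Lrp2, summed to 659 and 632 CPM in the control and 517 and 557 CPM in the IL-12 libraries, with Slc34a1 and Umod at 0. The part of these markers in the results on lincRNAs was not tested.

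In the IL-12 group, 9 members changed by more than 2-fold with an adjusted p below 0.05 in edgeR's quasi-likelihood test: 6 were higher (Gm14005, Gm6634, 2010300F17Rik, 1600027J07Rik, Gm26694 and 9130604C24Rik) and 3 were lower (Gdap10, E130102H24Rik and Gm26890). The abundant nuclear RNAs Malat1 and Neat1 fell by less than 2-fold, and 3 snoRNA hosts and the hosts of the miR-17 cluster and miR-155 rose. The 9 members called were 4.35% of the 207, where 1.61% of the 14095 genes tested were called. The 6 higher made up 2.9% of members beside 0.858% of all genes tested, and the 3 lower made up 1.45% beside 0.752%. At any fold, 18 members (8.7%) were higher and 26 (12.6%) lower with an adjusted p below 0.05, beside 16.1% and 14.4% of all genes. In total 44 members passed, 21.3% of members beside 30.5% of all genes, and 66 had an unadjusted p below 0.05. With the libraries scaled by total counts only, 15 members were higher and 34 lower, so the higher share of these calls went from 40.9% to 30.6%, and over all genes from 52.8% to 40.5%. Without IL-12 replicate 1, 10 members were higher and 6 lower at any fold, with 4 and 1 of them called over 2-fold. Without IL-12 replicate 2, 10 were higher and 17 lower, with 3 and 5 called.

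Each of the 207 members passed the filter on low counts. They were low genes for the most part, with 75 of them under 200 counts over the 4 libraries, 78 from 200 to under 500 and 54 at 500 or more. The median standard error of a member's log2 fold change was 0.224, beside 0.0813 over all genes tested. Within ranges of count the shares were closer, apart from the share called at 500 counts or more. That range has no upper limit, and its median standard error was 0.107 in members and 0.061 in coding genes. Under 200 counts, 14.7% of members and 13.4% of 476 coding genes passed an adjusted p of 0.05, from 200 to under 500 counts 11.5% and 16.5% of 861, and at 500 or more 44.4% and 39.2% of 9777. The share called over 2-fold was 8% of members and 7.35% of coding genes under 200 counts, and 2.56% and 3.02% from 200 to under 500. At 500 or more it was 1.85% of members, which is 1 gene of 54, and 0.563% of coding genes.

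Both IL-12 libraries lay above both control libraries in 55 members (26.6%, beside 31.7% of all genes tested). In 70 members (33.8%, beside 31.2%) they lay below both control libraries. All 44 members past an adjusted p of 0.05 were among these, so a lack of overlap adds no support to a call. The median log2 fold change over the members was -0.04, with quartiles of -0.30 and 0.22, beside -0.0022 with quartiles of -0.17 and 0.15 over all genes. A value below 0 was found in 57.0% of members and 50.5% of all genes. Other noncoding classes with the same count floor had other splits: of 175 antisense genes 1 was higher and 15 lower with an adjusted p below 0.05, and of 140 processed transcripts 21 were higher and 6 lower.

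**Figure D1:**
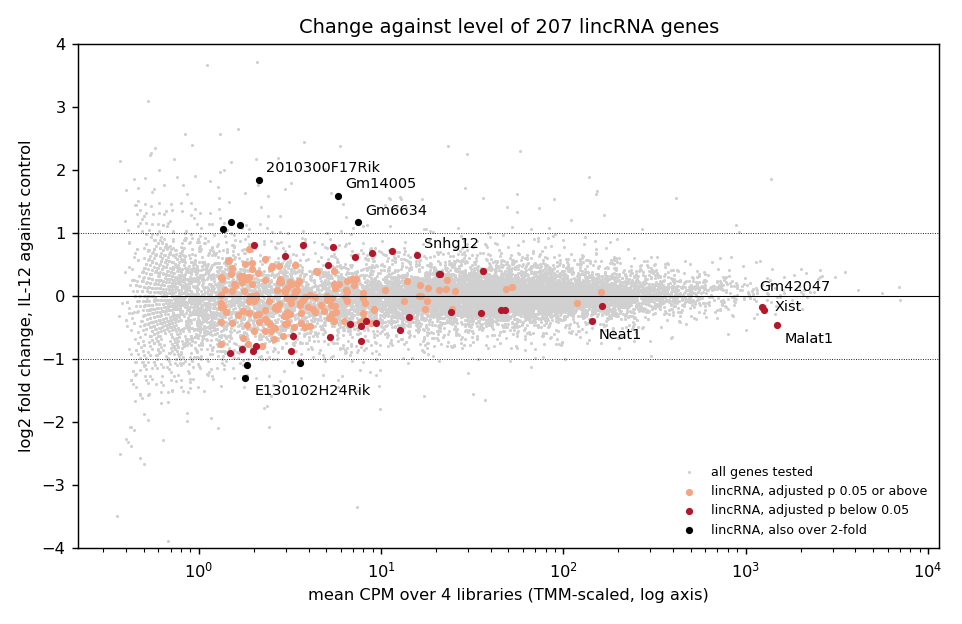
Log2 fold change (IL-12 against control) of the 207 lincRNA genes and of all genes tested, plotted against their mean CPM over the 4 libraries on a log axis, with dotted lines at 2-fold; 1 gene tested lies outside the plotted range. The 9 called members, in black, all lie at low levels, while Malat1, Xist and Gm42047, far to the right, and Neat1 lie a little below 0.

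The lowest members stood just over the floor. Gm26711, Gm19705 and Gm26785 had 100 counts in all, and Gm16386, Gm26840 and D230017M19Rik missed the floor with 98. Beneath the floor, 156 further lincRNA genes passed the filter on low counts.

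Gm14005 was the member with the smallest p among those higher with IL-12. RefSeq lists it as Morrbid, an RNA known from myeloid cells for holding down its neighbour Bcl2l11, which encodes the pro-apoptotic protein BIM. It spans chr2:128178319-128502765 (GRCm38, minus strand) with 16 exons after merging transcripts. It had 54 and 55 reads with saline against 172 and 158 reads with IL-12. These are 2.88 ± 0.045 and 8.71 ± 0.028 CPM (mean ± SD, n = 2 each), so both IL-12 libraries were about equally high and the groups did not overlap. The log2 fold change was 1.59 ± 0.17 (SE), a 3.02-fold difference with an adjusted p of 6.3e-07. With any 1 library left out it lay between 1.58 and 1.61. Bcl2l11 starts on the opposite strand and ends 15772 bp from the end of Gm14005. It fell by 0.44 ± 0.07 on the log2 scale (adjusted p = 8.3e-05), from 743 and 767 counts to 599 and 519.

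Gm6634 has no described function. It lies at chr3:70772379-70807291 on the minus strand in a gene-poor stretch, 743671 bp from Otol1, the nearest coding gene, which had 0 counts. It overlaps no other gene. The counts were 80 and 94 in the control and 190 and 203 in the IL-12 libraries, or 4.60 ± 0.54 and 10.4 ± 1.1 CPM (SD, n = 2). Both IL-12 libraries were high and the groups did not overlap, with a log2 fold change of 1.17 ± 0.15 (adjusted p = 9.3e-06).

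2010300F17Rik had the largest fold of the called members. It lies at chr11:96712982-96747436 on the minus strand, inside Skap1, a lymphocyte adaptor gene of the other strand with 11 counts in all, and shares 186 bases of exon with it. Reads numbered 22 and 13 with saline against 75 and 52 with IL-12. The replicates within each group differed more than those of Gm14005, but the groups stayed apart. Its log2 fold change was 1.85 ± 0.31 (adjusted p = 0.00015).

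The other 3 members called higher were near the count floor. 1600027J07Rik, on the minus strand of chr8:103343878-103347534 and 558236 bp from the cadherin gene Cdh11, had 21 and 19 counts in the control and 45 and 43 in the IL-12 libraries (log2 fold change 1.13 ± 0.31, adjusted p = 0.0085). Cdh11 was also higher, by 0.25 ± 0.03 (adjusted p = 1.5e-05). Gm26694, on the plus strand of chr17:25794894-25964784, had 17 and 18 counts against 36 and 43 (1.17 ± 0.33, adjusted p = 0.012). Its annotated span covers 21 other genes, and 1826 of its exonic bases lie opposite exons of Metrn, which had 238 counts. Where strand was not used in counting, reads of Gm26694 and Metrn could not be told apart. 9130604C24Rik, on the plus strand of chr5:137502673-137503628, had 13 and 20 counts against 33 and 36 (1.06 ± 0.36, adjusted p = 0.031), and overlaps Epo, the erythropoietin gene of the opposite strand, which had 0 counts. The groups did not overlap for any of these 3. Without control replicate 1, the adjusted p was 0.054 for Gm26694 and 0.23 for 9130604C24Rik. Without IL-12 replicate 1 it was 0.062 for 1600027J07Rik and 0.10 for 9130604C24Rik, and without IL-12 replicate 2 it was 0.13 for Gm26694, 0.062 for 1600027J07Rik and 0.18 for 9130604C24Rik.

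Of the 3 members called lower, Gdap10 and Gm26890 each lie within a coding gene on the same strand, outside its exons. Gdap10 (chr12:32821872-32826904, plus strand) lies within Nampt, which encodes the rate-limiting enzyme of NAD salvage. It had 94 and 91 counts in the control and 53 and 36 in the IL-12 libraries, so both IL-12 libraries were lower. It changed by -1.06 ± 0.21 on the log2 scale (adjusted p = 0.00081), and by -0.87 without IL-12 replicate 2. Nampt itself changed by -0.24 ± 0.06 (adjusted p = 0.0062), and its adjusted p was 0.14 both without control replicate 1 and without IL-12 replicate 1 and 0.074 on log2(FPKM + 1).

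Gm26890 (chr7:19597293-19602294, minus strand) lies within Clasrp, a gene for a splicing-related protein. The counts were 50 and 44 against 18 and 26, and the groups did not overlap. The log2 fold change was -1.09 ± 0.31 (adjusted p = 0.012), while Clasrp changed by -0.15 ± 0.05 (adjusted p = 0.036). Without control replicate 1 the adjusted p was 0.068 for Gm26890 and 0.21 for Clasrp, and without IL-12 replicate 1 it was 0.16 and 0.24. For Clasrp it was 0.066 without IL-12 replicate 2, 0.17 by the DESeq2 Wald test and 0.095 with no filter. Reads from introns of Nampt or Clasrp could not be told apart from reads of these members by the deposited counts.

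**Figure D2:**
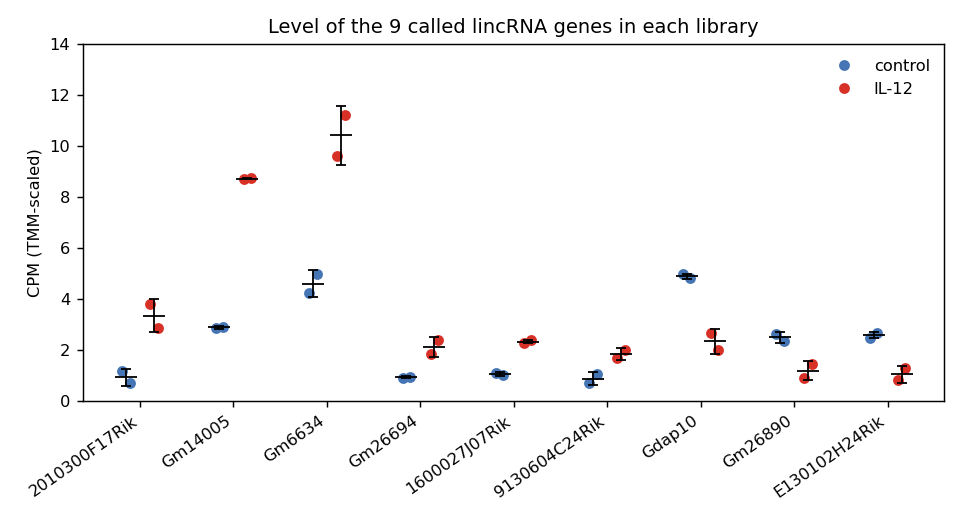
CPM (TMM-scaled) of the 9 called members in each of the 4 libraries, ordered by log2 fold change; points are libraries, black bars the mean and error bars the SD over 2 libraries. The groups do not overlap for any of the 9, and all but Gm14005 and Gm6634 stay under 5 CPM in every library.

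Upstream sequence was available for 5 of the called members, as RefSeq promoter windows on GRCm38.p6 from 250 bases before to 50 bases after an annotated start site. They are shown because these are the called members with a window, and they are printed 5′ to 3′ on the strand of the gene. Capitals mark matches on either strand to an AP-1 motif (TGANTCA), a cyclic AMP response element (TGACGTCA), a TEAD motif (GGAATG), a SMAD motif (CAGACA) or an E-box (CACGTG).
Gm14005: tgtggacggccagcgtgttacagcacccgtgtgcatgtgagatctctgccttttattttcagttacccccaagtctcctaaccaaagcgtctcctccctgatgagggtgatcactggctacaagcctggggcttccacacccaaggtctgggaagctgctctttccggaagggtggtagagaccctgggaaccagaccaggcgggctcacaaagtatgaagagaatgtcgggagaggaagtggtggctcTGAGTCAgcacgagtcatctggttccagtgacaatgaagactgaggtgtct
Gm6634: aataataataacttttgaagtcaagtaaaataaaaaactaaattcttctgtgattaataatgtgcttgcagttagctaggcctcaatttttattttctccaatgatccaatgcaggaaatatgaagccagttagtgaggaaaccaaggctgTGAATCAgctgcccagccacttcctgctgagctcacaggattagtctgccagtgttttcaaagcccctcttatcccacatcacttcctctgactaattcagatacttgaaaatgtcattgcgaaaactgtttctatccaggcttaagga
1600027J07Rik: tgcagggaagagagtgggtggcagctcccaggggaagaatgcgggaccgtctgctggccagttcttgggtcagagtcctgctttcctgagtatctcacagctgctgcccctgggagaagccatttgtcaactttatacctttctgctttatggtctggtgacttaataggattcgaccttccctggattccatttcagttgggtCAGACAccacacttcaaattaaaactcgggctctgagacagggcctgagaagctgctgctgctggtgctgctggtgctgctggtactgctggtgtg
Gdap10: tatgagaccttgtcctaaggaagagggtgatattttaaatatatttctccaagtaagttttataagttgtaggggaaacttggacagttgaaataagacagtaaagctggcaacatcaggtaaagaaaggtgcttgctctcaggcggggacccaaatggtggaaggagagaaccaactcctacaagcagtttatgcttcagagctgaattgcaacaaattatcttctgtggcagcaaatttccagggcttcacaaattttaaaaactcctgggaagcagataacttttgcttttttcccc
E130102H24Rik: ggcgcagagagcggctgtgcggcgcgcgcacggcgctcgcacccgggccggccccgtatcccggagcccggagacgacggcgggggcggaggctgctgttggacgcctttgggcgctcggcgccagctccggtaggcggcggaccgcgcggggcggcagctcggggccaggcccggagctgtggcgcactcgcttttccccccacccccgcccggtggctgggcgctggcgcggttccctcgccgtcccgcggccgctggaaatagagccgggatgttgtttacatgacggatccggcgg

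The windows stand at chr2:128429302-128429601 (minus strand) for Gm14005, chr3:70807242-70807541 (minus) for Gm6634, chr8:103347485-103347784 (minus) for 1600027J07Rik, chr12:32823866-32824165 (plus) for Gdap10 and chr4:101356199-101356498 (minus) for E130102H24Rik. The RefSeq start equals the deposited one for Gm6634 and 1600027J07Rik, and lies 487 bp from it for E130102H24Rik, 2244 bp for Gdap10 and 73414 bp for Gm14005. An AP-1 match begins at -1 in Gm14005 and at -99 in Gm6634, counted from the start site, and a SMAD match at -46 in 1600027J07Rik. The windows of Gdap10 and E130102H24Rik hold none of these letters.

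Of the 207 members, 98 had a window on their own chromosome and strand, and for 69 of these a RefSeq start lay within 100 bp of the deposited one. The AP-1 letters were in 10 of the 98, beside 7.81% of all 32851 promoter windows, and in 2 of 10 members higher and 3 of 16 members lower with an adjusted p below 0.05. The TEAD letters were in 20 (14.7% of all windows), the SMAD letters in 19 (21.0%), the E-box in 10 (7.15%) and the cyclic AMP response element in 6 (1.79%). A looser NF-kappaB consensus matched 60 of the 98 and 50.8% of all windows. These matches are descriptions of the letters only.

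Of the members that are known mainly as microRNA hosts or carry RefSeq microRNAs, Mir17hg and Mir155hg rose and E130102H24Rik and A230057D06Rik fell. Mir17hg is the host of the miR-17-92 cluster, known for promoting proliferation, and Mir155hg of miR-155, known from immune activation. The mature sequences of the arms usually regarded as the active ones follow, from RefSeq, with the seed (bases 2 to 8) in capitals, since the seed sets which messages a microRNA pairs with.
miR-17-5p: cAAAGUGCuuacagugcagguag
miR-20a-5p: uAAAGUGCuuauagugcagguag
miR-18a-5p: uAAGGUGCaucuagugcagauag
miR-19a-3p: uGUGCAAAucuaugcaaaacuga
miR-19b-3p: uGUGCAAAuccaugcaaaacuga
miR-92a-3p: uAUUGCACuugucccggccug
miR-155-5p: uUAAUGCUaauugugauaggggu
miR-101a-3p: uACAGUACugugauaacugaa

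In the Mir17hg cluster, miR-17-5p and miR-20a-5p share the seed AAAGUGC, and miR-19a-3p and miR-19b-3p share GUGCAAA. The seeds of miR-18a-5p, miR-92a-3p, miR-155-5p and miR-101a-3p are found once each among the mature microRNAs of the members. The counts are of the host transcripts, and the levels of the mature microRNAs were not measured. The genes of the hairpins Mir155 and Mir101a had 0 counts of their own.

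Mir17hg (chr14:115042879-115046727, plus strand) had 115 and 99 counts in the control and 156 and 173 in the IL-12 libraries, so both IL-12 libraries were higher. Its log2 fold change was 0.62 ± 0.15 (adjusted p = 0.0047), and the adjusted p was 0.087 without IL-12 replicate 2. Mir155hg (chr16:84703167-84715245, plus strand) had 33 and 22 counts against 47 and 50, a log2 fold change of 0.82 ± 0.29 (adjusted p = 0.041). The call on Mir155hg was lost without control replicate 2 (adjusted p = 0.28), without IL-12 replicate 1 (0.12), without IL-12 replicate 2 (0.21), with total-count scaling (0.052) and by the DESeq2 Wald test (0.20).

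E130102H24Rik (chr4:101346531-101356735, minus strand), whose exons hold Mir101a, was the member called lower with the largest fold. It had 47 and 50 counts in the control and 16 and 23 in the IL-12 libraries, which did not overlap. Its log2 fold change was -1.31 ± 0.31 (adjusted p = 0.0035), and the adjusted p was 0.082 without IL-12 replicate 1. A230057D06Rik, the host of 7 RefSeq hairpins of the miR-344 family, had 72 and 84 counts against 40 and 45 (-0.87 ± 0.23, adjusted p = 0.0060). Its 4 microRNAs with the seed GUCAGGC are all 5p arms. A230057D06Rik was singled out after its values were seen.

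In total 13 members contained RefSeq microRNAs on their own strand. Besides these 4, Snhg20, which holds Mir6516, rose and is given with the snoRNA hosts. The other 8 did not pass an adjusted p of 0.05, among them AL805899.1, the host of miR-31 (0.24, adjusted p = 0.10), and 6720427I07Rik, which holds let-7d (0.13, adjusted p = 0.60).

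Malat1 and Neat1, the RNAs of nuclear speckles and paraspeckles, were both lower in the IL-12 group. They are neighbours on the minus strand of chromosome 19, Malat1 at chr19:5795690-5802672 and Neat1 at chr19:5824708-5845478. Malat1 had 32715 and 32266 counts in the control and 22885 and 24465 in the IL-12 libraries. The log2 fold change was -0.45 ± 0.04 (adjusted p = 2.6e-07). Neat1 had 3180 and 2968 counts against 2394 and 2283 (-0.40 ± 0.04, adjusted p = 1.6e-06). In both genes each IL-12 library was lower than each control library. The counts do not separate the short and the long form of Neat1, which share their start.

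Frmd8, the coding gene nearest to Neat1, had a log2 fold change of -0.06 ± 0.05 (adjusted p = 0.39) and did not pass the test. Of 16 speckle and paraspeckle proteins, 7 rose and 0 fell with an adjusted p below 0.05, with a median log2 fold change of 0.084. Beside these, 39.2% of 9777 coding genes with 500 counts or more passed, 2056 of them higher and 1776 lower. Srsf2, a splicing factor of speckles, rose by 0.36 ± 0.04 (adjusted p = 2.7e-06), and Sfpq, a core paraspeckle protein, by 0.14 ± 0.03 (adjusted p = 0.0021). Its partner Nono had a log2 fold change of -0.03 ± 0.03 (adjusted p = 0.45). Of 23 nuclear RNA decay factors, 11 rose and 2 fell (Xrn1 and Smg1), with a median of 0.14, beside the same share of coding genes. Among these, the exosome subunit Exosc1 rose by 0.53 ± 0.07 and the exosome nuclease Dis3 by 0.48 ± 0.05.

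**Figure D3:**
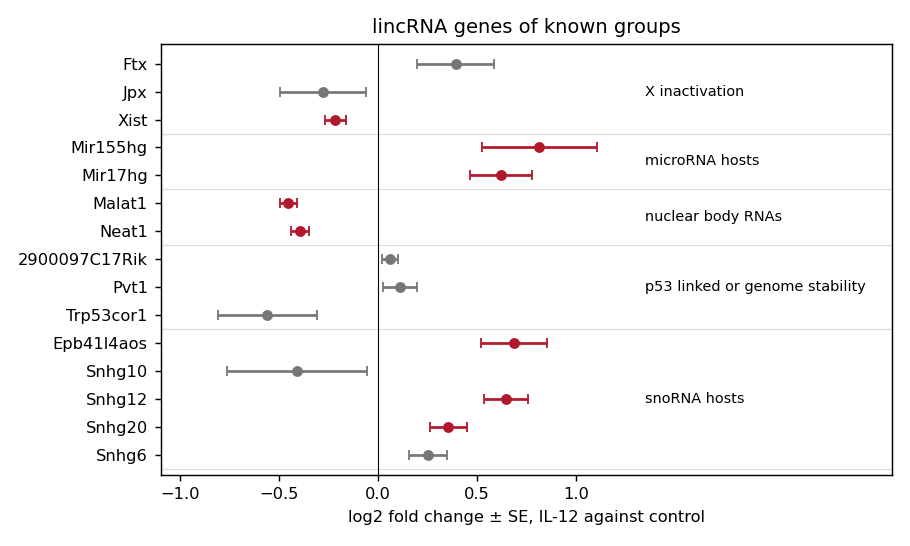
Log2 fold change (IL-12 against control) with its SE for the 15 members in groups named for their known roles; red points had an adjusted p below 0.05 and grey points did not. Malat1, Neat1 and Xist lie below 0 in red, and 3 of the 5 snoRNA hosts and both microRNA hosts lie above it in red.

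Of 5 members known by name as snoRNA hosts, 3 rose. These transcripts carry snoRNAs, guides of ribosomal RNA modification, mostly in their introns. Snhg12 (chr4:132308623-132311024, plus strand) had 207 and 256 counts in the control and 389 and 338 in the IL-12 libraries, with no overlap. Its log2 fold change was 0.65 ± 0.11 (adjusted p = 0.00019). Trnau1ap, the selenocysteine factor gene that ends 739 bp away on the other strand, had a log2 fold change of 0.20 ± 0.07 (adjusted p = 0.056).

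Epb41l4aos had 100 and 158 counts against 228 and 189, a log2 fold change of 0.69 ± 0.17 (adjusted p = 0.0040). The control libraries differed from each other by more than the IL-12 libraries did, and the call was lost without control replicate 1 (0.40, adjusted p = 0.071) and without IL-12 replicate 1 (0.62, adjusted p = 0.13). Snhg20 had 325 and 369 counts against 476 and 414 (0.36 ± 0.09, adjusted p = 0.0067), and the adjusted p was 0.080 without control replicate 1 and 0.11 without IL-12 replicate 1. Snhg6 had a log2 fold change of 0.25 ± 0.10 (adjusted p = 0.054), and its libraries nearly met, at 427 counts in control replicate 2 and 428 in IL-12 replicate 2. Snhg10, at 16 to 31 counts a library, had -0.41 ± 0.35 (adjusted p = 0.43). By annotation, 8 members hold a snoRNA or a small Cajal body RNA on their own strand, these 5 and 3 others, looked up after their values were seen, that did not pass the test: 2700038G22Rik (0.40 ± 0.17, adjusted p = 0.074), 9430037G07Rik (0.02 ± 0.37, adjusted p = 0.97) and 2900076A07Rik (-0.0053 ± 0.19, adjusted p = 0.99).

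Most snoRNA hosts carry other biotypes in the deposited table and are not members. Over all biotypes, 11 of 15 tested hosts rose and 0 fell, the 3 members included, beside 16.1% higher and 14.4% lower of all genes tested. Snhg4, a processed transcript, rose by 0.89 ± 0.10, and Gas5 by 0.70 ± 0.09.

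Of 3 members of the X-inactivation centre, Xist alone passed the test. Xist had 25249 and 25726 counts in the control and 20782 and 22991 in the IL-12 libraries. Both IL-12 libraries were lower, but they differed from each other by more than the control libraries did. The log2 fold change was -0.22 ± 0.05 (adjusted p = 0.0035), and without IL-12 replicate 1 it was -0.08 (adjusted p = 0.076). By the DESeq2 Wald test the adjusted p of Xist was 0.30. Ftx and Jpx, both known as activators of Xist, had log2 fold changes of 0.39 ± 0.20 (adjusted p = 0.15) and -0.28 ± 0.22 (adjusted p = 0.38).

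None of the 3 members linked to p53 or genome stability passed an adjusted p of 0.05. Norad (2900097C17Rik), which holds Pumilio proteins, had 2983 and 2939 counts in the control and 3163 and 3011 in the IL-12 libraries (log2 fold change 0.06 ± 0.04, adjusted p = 0.30). The level of Norad is uncertain, since its longest transcript matches Gm7292, a member with 1580 counts, with 99.2% identity over 2537 bases. Pvt1, the neighbour of Myc, had a log2 fold change of 0.11 ± 0.09 (adjusted p = 0.37). Trp53cor1, a p53 target known as lincRNA-p21, had 61 and 51 counts against 41 and 35 (-0.56 ± 0.25, adjusted p = 0.10). Both of its IL-12 libraries were below both control libraries, as in 33.8% of members and 31.2% of all genes tested. The lists of imprinted and developmental noncoding RNAs held no member: of their genes 4 and 3 were tested, and none passed.

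Per gene length, Gm42047 and Malat1 were the most abundant members, with mean FPKM of 219 and 213 over the 4 libraries. Xist followed at 69.9 FPKM and Norad at 32.5. In the control libraries Malat1 stood above Gm42047 (247 and 245 against 235 and 228 FPKM), and in the IL-12 libraries below it (166 and 194 against 199 and 212). The next members by FPKM were Gm53 (30.0), C130083M11Rik (23.1), Gm10076 (23.0), Tmem250-ps (20.9) and Epb41l4aos (20.7), then Snhg6, and the spread of these last 5 over the libraries overlapped. Of these, Gm53 had a log2 fold change of -0.11 ± 0.04 (adjusted p = 0.075) and Tmem250-ps of 0.14 ± 0.06 (adjusted p = 0.11).

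Gm42047 (chr8:121833247-121841178, plus strand) had 25209 and 24331 counts in the control and 22190 and 21664 in the IL-12 libraries, which did not overlap. Its log2 fold change was -0.18 ± 0.03 (adjusted p = 0.00017). Its level is uncertain, since its longest transcript matches 8 other genes, with 98.4% identity over 3209 bases to Gm48362. C130083M11Rik was lower by the test (-0.22 ± 0.07, adjusted p = 0.023), and this call was lost without control replicate 1 (adjusted p = 0.059) or IL-12 replicate 1 (0.35). Gm10076 varied within groups, at 145 and 237 counts in the control and 95 and 186 in the IL-12 libraries, and matches Rpl41, a ribosomal protein gene, over 383 bases with 99.5% identity. Its log2 fold change was -0.44 ± 0.25 (adjusted p = 0.21), and 0.03 without IL-12 replicate 1.

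The members together took 0.637% and 0.630% of all counts with saline, against 0.504% and 0.558% with IL-12. Malat1, Xist, Gm42047 and 1700020I14Rik made up 67.9% to 72.8% of these counts in each library. The remaining 203 members summed to 1714 and 1693 CPM in the control and 1640 and 1682 CPM in the IL-12 libraries. The drop in the summed share was thus mostly that of the abundant genes, with Malat1 going from 27.5% of the members' counts in both control libraries to 22.6% and 23.9%.

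**Figure D4:**
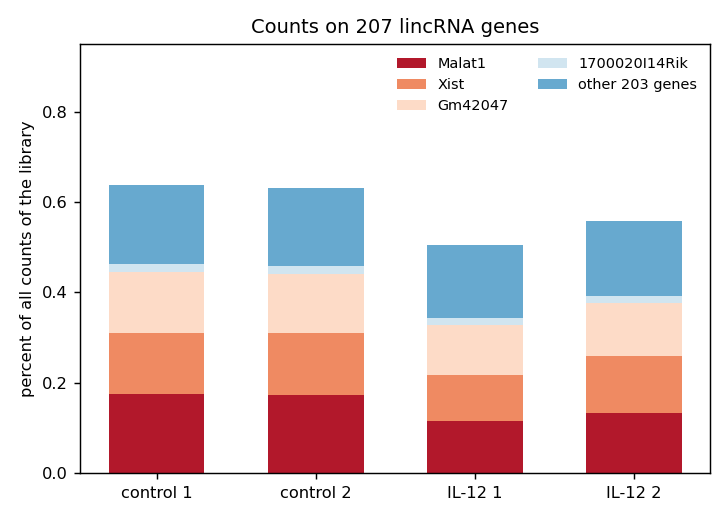
Percent of all counts of each library that fell on the 207 members, stacked as Malat1, Xist, Gm42047, 1700020I14Rik and the other 203 genes. The bars reach 0.637% and 0.630% in the control and 0.504% and 0.558% in the IL-12 libraries, and the top segment of 203 genes runs from 0.162% to 0.174%.

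AU020206 and D930016D06Rik were the remaining members among the 5 with the smallest p in each direction. AU020206, a spliced RNA of unknown function at chr7:75769038-75782099 (minus strand), had 600 and 576 counts in the control and 792 and 757 in the IL-12 libraries. The groups did not overlap, and the log2 fold change was 0.40 ± 0.07 (adjusted p = 0.00018). Its convergent neighbour Akap13, an anchoring protein and activator of RhoA 14429 bp away, fell by 0.26 ± 0.06 (adjusted p = 0.0036), and this call was lost without IL-12 replicate 1 (adjusted p = 0.12). D930016D06Rik (chr5:104525735-104554207, plus strand) had 269 and 296 counts against 201 and 189 (-0.54 ± 0.11, adjusted p = 0.0012), and both IL-12 libraries were lower. The coding gene BC005561, 3124 bp upstream of it, had -0.19 ± 0.09 (adjusted p = 0.15).

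By position, 50 members overlapped their nearest coding gene, 56 were divergent from it (31 of them within 1 kb), 22 were convergent, and 42 lay downstream and 37 upstream of it on the same strand. The median distance was 3124 bp. In 169 pairs the coding gene was also tested, and across these pairs the log2 fold changes had a Pearson r of 0.24 and a Spearman rho of 0.25. The pairs share the same 4 libraries and scaling, and genes are not independent replicates. Overlapping pairs may also share reads, since the use of strand in counting is not stated, and the part of this was not tested. The Pearson r was 0.51 across the 38 overlapping pairs (Spearman rho 0.44) and 0.21 across the 31 divergent pairs within 1 kb (rho 0.16). It was -0.30 across the 14 convergent pairs, where the Spearman rho was only -0.099. Across the 30 same-strand pairs with the lincRNA upstream it was 0.35 (rho 0.26), and across the 34 with it downstream 0.24 (rho 0.20). The 92 pairs more than 1 kb apart had a Pearson r of 0.13 (rho 0.17).

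Of 33 members past an adjusted p of 0.05 whose coding neighbour was tested, 10 had a neighbour that also passed in the same direction and 4 one that passed in the opposite direction. Of 136 members that did not pass, 52 had a neighbour that did. These are 42.4% and 38.2%, beside 36.3% of all coding genes of at least 100 counts. The 4 in the opposite direction include Gm14005 with Bcl2l11 and AU020206 with Akap13, given above. The others are C130083M11Rik (-0.22) with Dhx15 (0.16 ± 0.03, adjusted p = 0.00051) and Snhg20 (0.36) with Sec14l1 (-0.16 ± 0.04, adjusted p = 0.011). The pairs that follow were chosen after their values were seen, all from those that passed in the same direction. Gm17501 (0.34 ± 0.11, adjusted p = 0.018) starts 331 bp from Cyr61, a matricellular protein gene and YAP target on the other strand, which rose by 0.44 ± 0.03 (adjusted p = 4.7e-10). Gm38399 (0.81 ± 0.21, adjusted p = 0.0066) lies in Nav1, a cytoskeletal gene of the same strand that rose by 0.56 ± 0.06, and Gm17552 (0.50 ± 0.17, adjusted p = 0.035) opposite Carns1, a carnosine synthase gene that rose by 0.55 ± 0.08. Both share exonic bases with the coding gene, and their reads could not be told apart with certainty. Gm26651 and Gadd45g, a stress response gene 124746 bp away on the same strand, both rose by 0.64 on the log2 scale (adjusted p = 0.044 and 9e-08). AI480526 (-0.39 ± 0.14, adjusted p = 0.040) starts 527 bp from the histone methyltransferase gene Setd1b, which fell by 0.23 ± 0.06 (adjusted p = 0.0068).

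**Figure D5:**
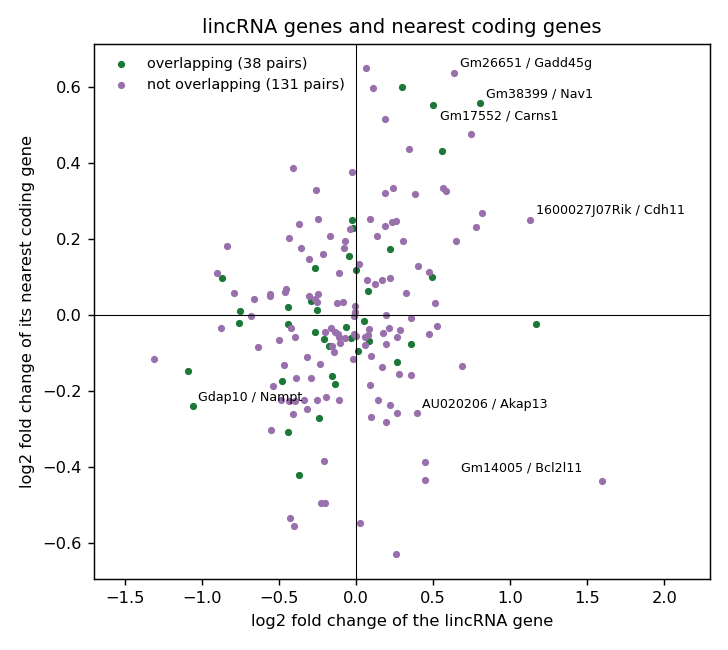
Log2 fold change (IL-12 against control) of 169 members against that of their nearest coding gene, where both were tested; green points are pairs whose genes overlap (38) and purple points those that do not (131). The points scatter on both sides of 0 (Pearson r 0.24), with Gm14005 and Bcl2l11 far apart in sign.

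The members had a median of 3 exons after merging transcripts, a median exonic length of 2421 bases and a median span of 6582 bp, and 41 had a single exon. The median GC content of the longest transcript was 46.9%, beside 49.7% for coding genes of at least 100 counts. Of the 207, 118 overlapped another gene, 87 of them on the opposite strand, and 86 shared exonic bases with one. A match of at least 200 bases with 95% identity or more to a transcript of another locus was found for 26 members. Among the 110 members of neither kind, a subset taken after seeing the data, 3 were called higher and 2 lower (4.55%), and at any fold 8 were higher and 11 lower with an adjusted p below 0.05.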

How the data were processed

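RNA-sequencing was analysed for 2 control and 2 IL-12 libraries, grouped by the sample labels. The authors deposited raw counts per gene and FPKM values, and the submitters' processing notes name HISAT2, StringTie and mm9, with the counting program and use of strand not given in the sources used here. The deposited coordinates equalled those of GENCODE M21 (GRCm38) for 98.3% of genes and 202 of 207 members, so GRCm38 is given here. The FPKM values were used for levels between genes.

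The counts were tested in R 4.3.3 with edgeR 4.0.16 (filterByExpr, minimum 10 counts and 15 in total, TMM scaling, quasi-likelihood test, Benjamini-Hochberg adjustment over 14095 genes). A gene was called with an adjusted p below 0.05 and over 2-fold. Standard errors were taken from the log2 fold change and the F statistic (change over root F). CPM values are TMM-scaled. Near-identical copies were sought with blastn 2.17.0. An exact permutation test of 2 against 2 libraries cannot go below 0.333. A floor of 3 counts equals 0.152 to 0.166 CPM.

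The named genes are the called members, the 10 highest by FPKM, the 5 with the smallest p in each direction, members of the functional groups, 3 genes on each side of the floor, and the nearest coding genes of the called and smallest-p members; others are marked as chosen later. Not every pick is reported here. The members and gene lists were chosen with earlier results of these data known. Alternatives were DESeq2 1.42.0, limma 3.58.1 (voom, and log2 FPKM with 1 or 0.1 added), other scalings, filters, floors and thresholds, a replicate block and each library left out.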

Additional observations from a re-analysis of the deposited data

How the results depend on the processing

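The counts of members called (6 higher, 3 lower) and past an adjusted p of 0.05 at any fold (18 higher, 26 lower) depended on the test and on single libraries. The same 9 members were called with DESeq2's size factors, upper-quartile scaling, total counts, voom and a stricter filter (10 counts or more in each library). The DESeq2 Wald test called 3 higher and 2 lower, and 9 and 8 at any fold, without Gm26890, Gm26694, 9130604C24Rik and 1600027J07Rik; it gave no adjusted p for the last 3 of these. With no filter 13 members were higher and 14 lower at any fold, and 9130604C24Rik was not called (adjusted p = 0.061). On log2(FPKM + 1), which shrinks the change of low genes, limma called 0 higher and 0 lower, also at an unadjusted p, with 19 higher and 15 lower at any fold. On log2(FPKM + 0.1), 6 were called higher and 1 lower, with 17 higher and 14 lower at any fold. On both FPKM scales and by DESeq2, more members were thus higher than lower, the opposite of the main split. A test against the 2-fold limit called 0 higher and 0 lower (3 and 0 at an unadjusted p below 0.05), and a 1.5-fold limit called 14 and 11. A count floor of 50 gave 6 called lower, and a floor of 200 gave 2 higher and 1 lower. Without members that share exons or near-identical sequence with other genes, an alternative chosen after seeing the data, 3 were called higher, and 8 were higher and 11 lower at any fold. With each library left out in turn, 3 to 7 were called higher and 1 to 5 lower, and 10 to 18 were higher and 6 to 21 lower at any fold.

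Calls over all genes varied with the processing as well, from 227 in the main fit. There were 103 by the DESeq2 Wald test, 177 with no filter, 38 on log2(FPKM + 1) and 141 on log2(FPKM + 0.1). Fewer calls in these settings were thus not particular to the members. The stricter filter gave 158, with the same 9 members, and the other scalings gave 232 to 246. The replicate block gave the same 9 calls among members (6 higher, 3 lower), with 19 members higher and 32 lower at any fold. Deviations of same-numbered libraries from their group means had a correlation of -0.027 across 14095 genes (2 pairs). With 2 libraries in each group, this cannot tell whether libraries of the same number were handled together.

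The median over the members was below 0 under every alternative run, from -0.08 with total counts to -0.01 without control replicate 1. Of the named genes, 4 that did not pass the test changed sign with a library left out. Gm10076 ranged from -1.07 to 0.026 and Gm19705 from -0.44 to 0.17. Ak4, the coding gene nearest to E130102H24Rik, ranged from -0.31 to 0.065. Pigq, among several coding genes within the span of Gm26694, ranged from -0.080 to 0.035. The 75 members under 200 counts had a median standard error of 0.304 on the log2 scale. Of these, 5 were higher and 6 lower with an adjusted p below 0.05, with 4 and 2 of them over 2-fold. Changes well under 2-fold could thus be missed at this depth.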
